A study of Homo sapiens with 6 samples.

Results

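The genes described here are the secreted WNT ligands, their frizzled receptors and co-receptors, the proteins that modulate them outside the cell, the dishevelled and axin relay inside it, and the TCF/LEF transcription factors. They were picked by gene family symbol among the protein-coding rows of the expression table, a rule that uses no measured value, and came to 45 of 21301 genes. The table holds no gene with an empty library, so family genes without counts in some library could not be picked. The RNA came from SH-SY5Y cells, a human neuroblastoma line of sympathetic neuroblast character, cultured in serum-containing medium. Cells of the siPSF group had received 10 nM of an siRNA against PSF for 72 h, and cells of the siControl group a control siRNA for the same 72 h. PSF, an RNA-binding protein of the nucleus and of paraspeckles, is encoded by SFPQ. Each group held 3 libraries of poly(A) RNA, named by the study as biological triplicates of this single cell line, and the study's methods name a single siRNA sequence for this experiment, so sequence-specific effects of that siRNA cannot be told apart from the loss of PSF.

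WNT proteins are lipid-modified secreted ligands. In the canonical branch they bridge a frizzled receptor and LRP5 or LRP6, recruit dishevelled, and stop the axin-based destruction complex from degrading β-catenin, which then acts with TCF/LEF factors on target genes. In the β-catenin-independent branches, frizzleds work with ROR1 or ROR2 in planar polarity and calcium signalling. WNT signals guide the neural crest, from which sympathetic neuroblasts arise, and many of the pathway's antagonists are themselves its target genes.

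The counts summed to between 101540520 and 132420931 per library. SFPQ, the targeted gene, read 372, 356 and 401 CPM after siControl (CPM being counts per 1e6 counted reads, scaled by the TMM method) and 209, 193 and 165 CPM after siPSF. Every siPSF library lay far under every siControl library, at a log2 fold change of −0.99 ± 0.10 (SE, n = 3 per group; adjusted p = 9.5e-05, edgeR's quasi-likelihood test, adjusted by Benjamini-Hochberg over the 19694 genes tested, as for all adjusted p-values below unless another tool is named). All 14 sympathetic neuroblast markers were in the table, and together they made up 6413 to 7154 CPM in siControl and 5837 to 7053 CPM in siPSF, with DBH (log2 fold change −0.68), TH (−1.20) and ELAVL4 (−0.46) called lower, GATA3 (0.30) called higher and 10 in neither direction. TH was at a low level, with means of 0.74 CPM in siControl and 0.32 CPM in siPSF. All 7 fibroblast and mesenchymal markers were present, at a sum of 99.4 to 127 CPM in siControl and 81.7 to 85.5 CPM in siPSF. Most of the sum was PDGFRA and PDGFRB, at means of 55.2 and 49.8 CPM in siControl. PDGFRA and COL3A1 were called lower and 5 in neither direction. Of these, LUM (log2 fold change 0.57, groups not overlapping) and COL1A1 (0.55) were higher without a call. Of the epithelial markers only EPCAM was tested, and it was called higher (0.86), at means of 2.06 CPM in siControl and 3.73 CPM in siPSF. CDH1 failed the filter on low counts, at means of 0.075 CPM in siControl and 0.043 CPM in siPSF. The part of these markers in the results below was not tested. Of the other lists, 3 of 7 glial, 1 of 4 endothelial, 2 of 4 immune and 2 of 3 epithelial markers were in the table, each list at a sum under 5 CPM in every library. In RNA from whole cultures, fewer cells of a kind and less RNA per cell cannot be told apart.

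Of the 45 genes, all passed the filter on low counts. At an adjusted p under 0.05, 6 were called lower after siPSF and 1 was called higher, while 38 were called in neither direction. Among all genes tested, 8.27% were called lower and 6.65% higher, against 13.3% and 2.22% of the WNT genes. The genes that fell were the co-receptors ROR1 and ROR2, the antagonist DKK1, the receptor FZD9, the agonist RSPO4 and the dishevelled DVL3. The gene that rose was the ligand WNT6. The siPSF values lay wholly below the siControl values for 9 members and wholly above for 4, which is 20% and 8.89% of the members, where the shares over all genes tested were 17.8% and 16.7%. The median log2 fold change was −0.03 over the members and 0.01 over all genes tested, with 25 members below 0 and 20 above.

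**Figure D1:**
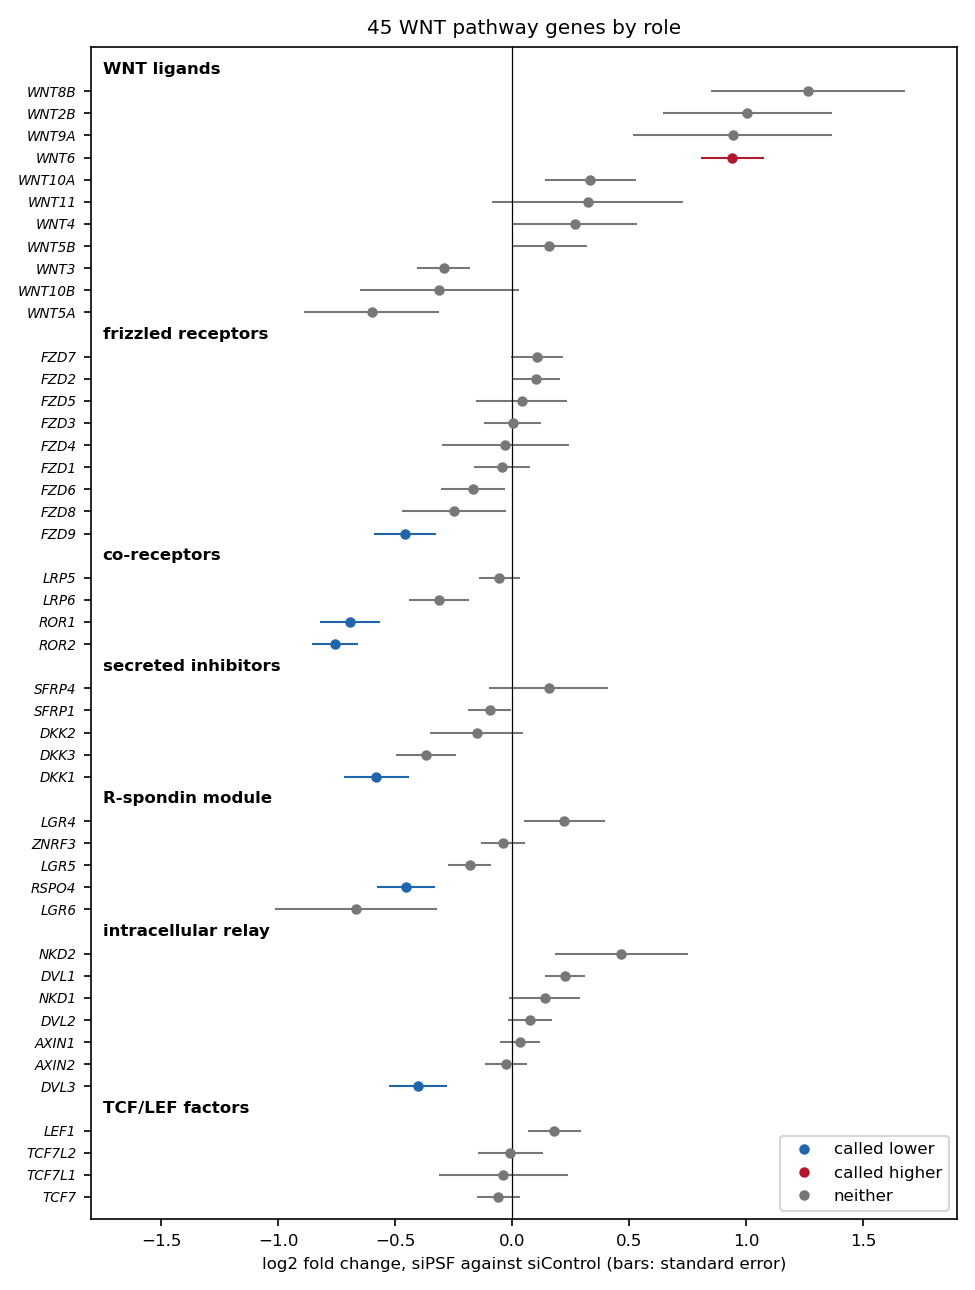
Log2 fold change of siPSF against siControl for each of the 45 genes, grouped by role, with the standard error as a bar; blue marks genes called lower, red the gene called higher and grey the rest. The blue points lie between −0.76 (ROR2) and −0.40 (DVL3), and the widest bars belong to ligands of low count such as WNT8B and WNT2B.

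The calls of ROR1, ROR2, DKK1 and WNT6 held whichever single library was left out. Their promoter windows (250 bases before to 50 after the transcription start, RefSeq, GRCh38.p14, given 5′ to 3′ on the gene's strand) are shown so that these called genes can be compared at their starts. Capitals mark matches, on either strand, to the TCF/LEF core CTTTGA, the TATA box TATAAA, the GC box GGGCGG and the CCAAT box CCAAT. ROR1 lies at chr1:63773767-63774066 (plus strand), ROR2 at chr9:91950179-91950478 (minus strand), WNT6 at chr2:218859555-218859854 (plus strand) and DKK1 at chr10:52314031-52314330 (plus strand).
ROR1: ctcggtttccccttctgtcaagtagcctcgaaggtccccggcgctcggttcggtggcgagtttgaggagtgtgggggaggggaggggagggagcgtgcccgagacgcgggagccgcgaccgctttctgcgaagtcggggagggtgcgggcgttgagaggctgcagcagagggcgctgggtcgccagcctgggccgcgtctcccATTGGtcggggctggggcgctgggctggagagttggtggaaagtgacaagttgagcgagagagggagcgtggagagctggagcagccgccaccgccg
ROR2: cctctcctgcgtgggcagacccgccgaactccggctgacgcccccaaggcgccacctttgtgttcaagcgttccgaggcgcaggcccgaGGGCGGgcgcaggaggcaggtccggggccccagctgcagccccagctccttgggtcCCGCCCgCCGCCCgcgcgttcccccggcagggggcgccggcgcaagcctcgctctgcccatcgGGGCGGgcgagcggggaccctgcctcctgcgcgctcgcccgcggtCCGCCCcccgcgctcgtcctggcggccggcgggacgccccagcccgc
WNT6: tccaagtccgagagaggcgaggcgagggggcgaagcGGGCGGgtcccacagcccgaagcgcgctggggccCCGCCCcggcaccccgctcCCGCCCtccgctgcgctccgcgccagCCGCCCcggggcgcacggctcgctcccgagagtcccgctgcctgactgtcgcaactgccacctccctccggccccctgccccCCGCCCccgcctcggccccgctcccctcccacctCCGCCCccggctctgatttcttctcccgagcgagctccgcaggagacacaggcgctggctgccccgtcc
DKK1: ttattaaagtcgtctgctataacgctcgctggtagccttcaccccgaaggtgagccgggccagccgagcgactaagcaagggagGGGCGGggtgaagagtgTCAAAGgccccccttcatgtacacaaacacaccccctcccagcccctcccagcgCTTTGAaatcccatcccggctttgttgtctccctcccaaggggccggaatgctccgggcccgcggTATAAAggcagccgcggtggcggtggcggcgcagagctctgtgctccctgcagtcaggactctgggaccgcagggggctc
The DKK1 window held the TCF/LEF core at 2 places, at bases 102 to 107 on the reverse strand and at bases 156 to 161 on the forward strand, and a TATA box at bases 221 to 226. The ROR2 window held 5 GC boxes and the WNT6 window 6, while the ROR1 window held a CCAAT box on the reverse strand and no GC box. Of the 45 genes, 31 had an entry, in 39 windows. The TCF/LEF core was present in 2.6% of these windows (DKK1 only) and in 12.92% of all 35116 windows, the TATA box in 10.3% and 11.53%, the GC box in 69.2% and 44.95%, and the CCAAT box in 35.9% and 34.61%. No match overlapped another in the windows shown. A match describes letters in the window and shows neither binding nor a cause. WNT10B, WNT11, FZD2, FZD3, FZD6, FZD7, LRP6, SFRP1, DKK2, DKK3, LGR5, ZNRF3, AXIN2 and NKD1 had no entry.

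Among the 11 ligands measured, WNT6 rose, none fell, and the median log2 fold change was 0.32. WNT6, a ligand that promotes epithelial differentiation in several embryonic tissues, stood at 3.62, 3.12 and 3.38 CPM in the siControl libraries. It stood at 6.96, 6.52 and 5.92 CPM in the siPSF libraries. The 2 groups were far apart, with the lowest siPSF library well above the highest siControl library. Its log2 fold change was 0.94 ± 0.13 (SE; adjusted p = 8.6e-04), a level 1.92 times that of siControl. WNT3, a canonical ligand, was the most abundant ligand per length in siControl at 3.16 ± 0.28 FPKM (SD, n = 3), FPKM being the deposited level per kilobase of transcript. WNT3 read 11.7, 10.2 and 11.6 CPM in siControl and 9.10, 8.59 and 9.62 CPM in siPSF. The WNT3 groups did not overlap, but the log2 fold change of −0.29 ± 0.11 did not pass (adjusted p = 0.10). As a description within each library, WNT6 made up 25.2%, 24.2% and 24.2% of the FPKM summed over the 11 ligands in siControl and 41.7%, 39.5% and 36.0% in siPSF. The share of WNT3 was 42.6%, 41.5% and 43.3% in siControl and 28.5%, 27.2% and 30.6% in siPSF, so that WNT3 was the leading ligand in every siControl library and WNT6 in every siPSF library.

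Fitted changes over 2-fold were found for 2 ligands, both at low counts and neither called. WNT8B, a ligand of the embryonic forebrain, had 24, 15 and 16 counts in siControl and 30, 26 and 55 counts in siPSF, with a log2 fold change of 1.26 ± 0.41 (SE; adjusted p = 0.059). WNT2B, another canonical ligand, had 40, 42 and 81 counts in siControl and 145, 88 and 51 counts in siPSF, with a log2 fold change of 1.004 ± 0.36 (adjusted p = 0.082). The WNT8B groups did not overlap, with siPSF replicate 3 the highest, whereas those of WNT2B did. Without siPSF replicate 3 the log2 fold change of WNT8B was 0.78 (adjusted p = 0.22). The relative transcript length implied by the ratio of counts to FPKM of WNT2B was 0.86, 0.84 and 1.47 in siControl and 1.62, 1.901 and 0.86 in siPSF, and 21.5% of its exonic bases overlap exons of ST7L on the opposite strand in GENCODE. WNT5A, the best known ligand of ROR2, was present at a low level, at 0.362, 0.517 and 0.603 CPM in siControl and 0.303, 0.341 and 0.335 CPM in siPSF. Its log2 fold change of −0.60 ± 0.29 was not called (adjusted p = 0.19), although its groups did not overlap. The remaining 6 ligands, WNT4, WNT5B, WNT9A, WNT10A, WNT10B and WNT11, had log2 fold changes from −0.31 to 0.94 and overlapping groups.

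**Figure D2:**
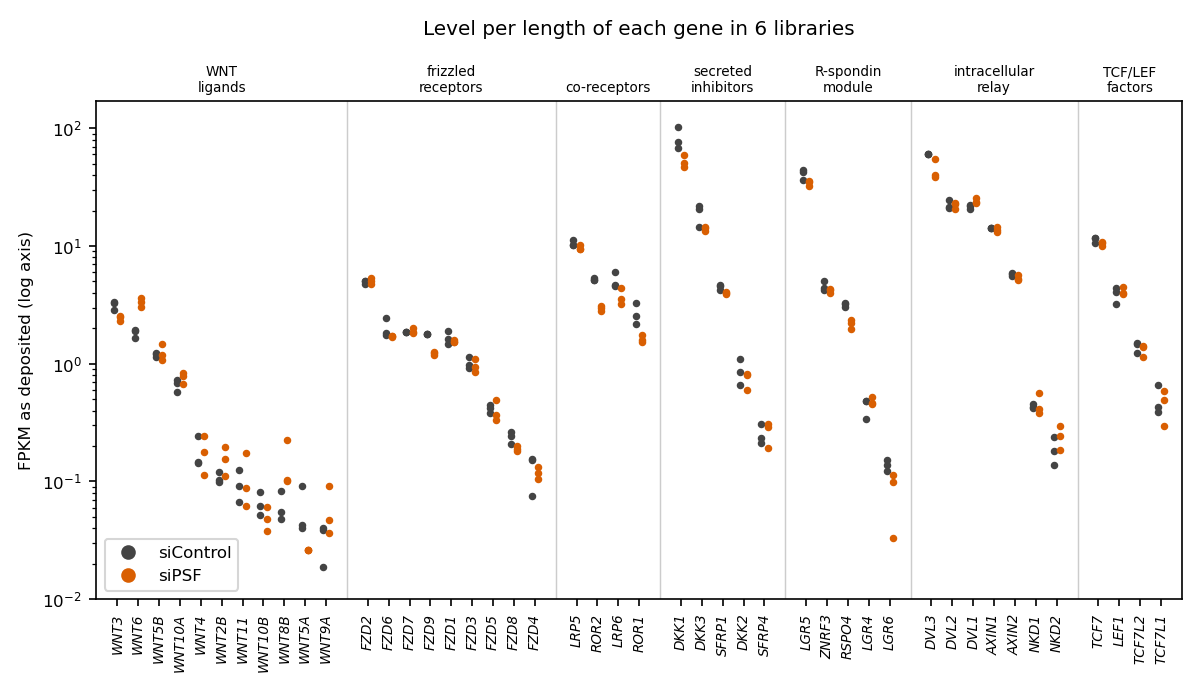
FPKM of each gene on a log axis in the 3 siControl (dark) and 3 siPSF (orange) libraries, with genes ordered within each role by their siControl mean. DKK1, DVL3 and LGR5 were the most abundant of the 45 genes per length, and 7 of the 11 ligands lay below 0.3 FPKM in every library.

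Among the 9 frizzleds, the seven-pass receptors of WNT, FZD9 fell and none rose, and the median log2 fold change was −0.03. FZD9, a receptor expressed in the developing brain, stood at 4.52, 4.61 and 4.41 CPM in siControl and at 3.12, 3.32 and 3.40 CPM in siPSF. The libraries lay close together within each group and the groups did not overlap. Its log2 fold change was −0.46 ± 0.13 (SE; adjusted p = 0.036), a siPSF level of 72.7% of siControl. The call of FZD9 held in 1 of 6 fits that left out a library. FZD2, the most abundant frizzled per length at 4.97 ± 0.15 FPKM (SD, n = 3) in siControl, read 20.7, 20.8 and 18.9 CPM in siControl and 20.1, 21.7 and 23.2 CPM in siPSF. FZD6, next in level at 2.01 ± 0.38 FPKM and known for planar polarity, read 6.94, 7.46 and 9.47 CPM in siControl and 7.10, 7.16 and 6.999 CPM in siPSF. The groups of both genes overlapped, with log2 fold changes of 0.10 ± 0.10 (adjusted p = 0.53) for FZD2 and −0.17 ± 0.14 (adjusted p = 0.45) for FZD6. FZD7 was higher in every siPSF library than in any siControl library, but its log2 fold change of 0.11 ± 0.11 did not pass (adjusted p = 0.56). FZD1, FZD3, FZD4, FZD5 and FZD8 had overlapping groups and log2 fold changes from −0.25 to 0.04.

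Of the 4 co-receptors, 2 fell and none rose, at a median log2 fold change of −0.50. Both ROR receptors, tyrosine-kinase-like receptors that act with frizzleds in the β-catenin-independent branches, fell, while LRP5 and LRP6, the co-receptors of the canonical branch, passed the test in neither direction. ROR2 stood at 22.8, 24.0 and 22.1 CPM in siControl and at 14.0, 13.9 and 12.8 CPM in siPSF. ROR1 stood at 13.4, 15.7 and 18.1 CPM in siControl and at 10.5, 8.81 and 9.82 CPM in siPSF. For neither gene did any siPSF library reach the lowest siControl library. The log2 fold change was −0.76 ± 0.10 (SE; adjusted p = 4.3e-04) for ROR2, the largest fall among the called members, and −0.69 ± 0.13 (adjusted p = 0.0041) for ROR1. The siPSF levels were thus 59.1% and 61.8% of siControl. LRP5 was the most abundant of the 4 per length at 10.6 ± 0.55 FPKM (SD, n = 3) in siControl and read 63.2, 58.0 and 55.4 CPM in siControl and 54.2, 55.4 and 60.4 CPM in siPSF. Its groups overlapped and its log2 fold change was −0.06 ± 0.09 (adjusted p = 0.72). LRP6 read 47.3, 48.2 and 60.5 CPM in siControl and 39.6, 36.5 and 49.4 CPM in siPSF, overlapping at 1 siPSF library, with a log2 fold change of −0.31 ± 0.13 (adjusted p = 0.12). The difference between the ROR and LRP changes was not tested. The 4 co-receptors summed to 23.2, 22.8 and 24.6 FPKM in siControl and 17.8, 17.1 and 19.0 FPKM in siPSF.

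**Figure D3:**
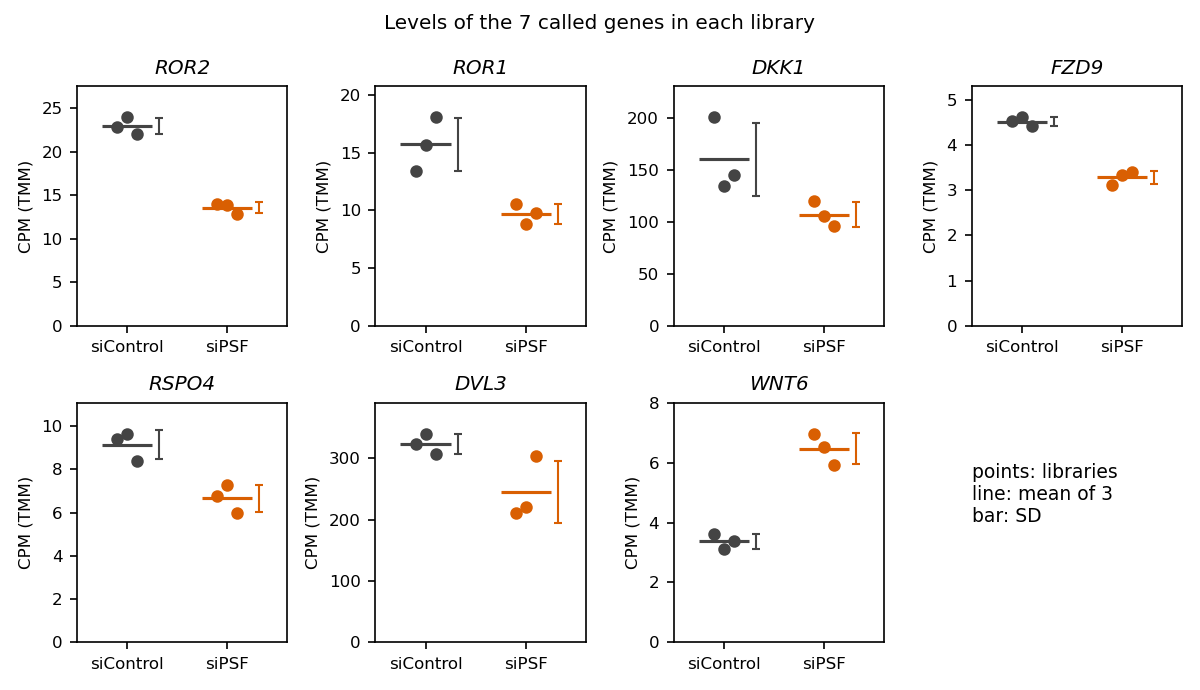
CPM of the 7 called genes in each library, with the mean of 3 as a line and the SD as a bar beside it; every axis starts at 0. The groups do not overlap for any of the 7, and for DVL3 the highest siPSF library, at 303 CPM, lies just under the lowest siControl library, at 307 CPM.

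Among the 5 secreted inhibitors, DKK1 fell and none rose. DKK1, which blocks LRP5 and LRP6 and is also a target gene of β-catenin, was the most abundant member per length in siControl, at 82.5 ± 17.6 FPKM (SD, n = 3). It read 200, 135 and 145 CPM in siControl and 120, 105 and 96.0 CPM in siPSF. All siPSF libraries lay under all siControl libraries, and siControl replicate 1 stood above the other 2 of its group. Its log2 fold change was −0.58 ± 0.14 (SE; adjusted p = 0.015), and −0.39 (adjusted p = 0.039) without siControl replicate 1. In GENCODE, 10.2% of the exonic bases of DKK1 overlap exons of PRKG1-AS1 on the other strand. DKK3, a divergent Dickkopf family member, was next in level at 19.1 ± 3.9 FPKM and read 41.9, 60.8 and 58.1 CPM in siControl and 39.3, 41.0 and 44.1 CPM in siPSF. The DKK3 groups overlapped through siControl replicate 1, and its log2 fold change of −0.37 ± 0.13 was not called (adjusted p = 0.071). Of its exonic bases, 47.5% overlap exons of USP47 on the other strand, and since strand use in counting is not stated, its counts are uncertain. SFRP1, which binds WNT proteins directly, was lower in every siPSF library, with a log2 fold change of −0.10 ± 0.09 (adjusted p = 0.53). DKK2 and SFRP4 had overlapping groups and log2 fold changes of −0.15 and 0.16, neither called.

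In the R-spondin module, in which secreted R-spondins bind LGR receptors and remove the ubiquitin ligase ZNRF3 that clears frizzleds from the surface, RSPO4 fell and none of 5 rose. RSPO4, the only R-spondin measured here, stood at 9.39, 9.65 and 8.38 CPM in siControl and at 6.75, 7.26 and 6.005 CPM in siPSF, with no overlap. Its log2 fold change was −0.45 ± 0.12 (SE; adjusted p = 0.028), and the call held in 2 of 6 fits that left out a library. LGR5, an R-spondin receptor and β-catenin target gene, ranked 3 of the 45 genes per length at 41.0 ± 4.3 FPKM (SD, n = 3) in siControl. It read 220, 179 and 201 CPM in siControl and 179, 167 and 183 CPM in siPSF. These groups overlapped at a single siControl library, and the log2 fold change of −0.18 ± 0.09 was not called (adjusted p = 0.21). LGR5 made up 98.2% to 98.7% of the FPKM summed over the 3 LGR genes in every library. ZNRF3 read 32.7, 31.6 and 35.8 CPM in siControl and 30.7, 32.9 and 33.8 CPM in siPSF, with overlapping groups and a log2 fold change of −0.04 ± 0.09 (adjusted p = 0.82). LGR4 and LGR6 had log2 fold changes of 0.22 and −0.67, neither called, and LGR6 had 18 to 83 counts per library.

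Inside the cell, DVL3 fell while DVL1 and DVL2, its paralogs among the dishevelled scaffolds that carry the signal from frizzled, were not called. DVL3 read 324, 340 and 307 CPM in siControl and 211, 221 and 303 CPM in siPSF. The siPSF libraries differed among themselves, with replicate 3 near the control level. The log2 fold change was −0.40 ± 0.12 (SE; adjusted p = 0.048), and the call held in 1 of 6 fits that left out a library, namely without siPSF replicate 3, where it was −0.58. DVL2 read 78.3, 69.5 and 65.3 CPM in siControl and 75.8, 78.9 and 69.8 CPM in siPSF, with a log2 fold change of 0.08 ± 0.09 (adjusted p = 0.63). DVL1 read 76.4, 73.9 and 67.4 CPM in siControl and 80.3, 83.4 and 90.8 CPM in siPSF, and its log2 fold change of 0.23 ± 0.09 was not called (adjusted p = 0.0995). DVL1 did not overlap between groups and DVL2 did. Within each library, DVL3 made up 56.5%, 58.6% and 59.2% of the FPKM of the 3 dishevelled genes in siControl and 45.7%, 46.0% and 54.1% in siPSF. AXIN1 and AXIN2, scaffolds of the destruction complex, and NKD1 and NKD2, which bind dishevelled and dampen the signal, had overlapping groups and log2 fold changes from −0.03 to 0.47, none called.

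None of the 4 TCF/LEF factors was called, and their median log2 fold change was −0.02. TCF7, the most abundant per length at 11.3 ± 0.61 FPKM (SD, n = 3) in siControl, read 39.1, 42.7 and 42.6 CPM in siControl and 36.2, 41.9 and 41.3 CPM in siPSF. LEF1 read 15.2, 12.2 and 14.4 CPM in siControl and 16.7, 15.8 and 14.9 CPM in siPSF. Both overlapped between groups, with log2 fold changes of −0.06 ± 0.09 (adjusted p = 0.72) for TCF7 and 0.18 ± 0.11 (adjusted p = 0.32) for LEF1. TCF7L1 and TCF7L2 had log2 fold changes of −0.04 and −0.01. Among the 8 members that are themselves β-catenin feedback targets (AXIN2, LEF1, TCF7, NKD1, NKD2, ZNRF3, LGR5 and DKK1), DKK1 alone was called, and the median log2 fold change was −0.03. AXIN2, the most widely used readout of the canonical branch, read 25.6, 26.8 and 25.4 CPM in siControl and 24.4, 25.04 and 27.0 CPM in siPSF. Its groups overlapped, at a log2 fold change of −0.03 ± 0.09 (adjusted p = 0.88), and 25.3% of its exonic bases overlap another annotated gene on the same strand in GENCODE.

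In these libraries long genes were lower after siPSF, with a median log2 fold change of −0.17 over the 2770 protein-coding genes tested of 100 kb or more and 0.05 over the 11648 shorter genes. Of the longer genes 25.1% were called lower, against 4.64% of the shorter ones. The WNT genes of 100 kb or more numbered 13, had a median of −0.06 and included 2 called lower (15.4%), ROR1 and ROR2. The 32 shorter members had a median of 0.02, with 4 called lower and 1 called higher. Measured against the median of protein-coding genes in the same of 20 bins of gene length, ROR2 (228 kb) remained at −0.58 and ROR1 (407 kb) at −0.29. The other called members, all under 50 kb, had values on this scale from −0.65 (DKK1) to −0.46 (DVL3) for those called lower and 0.87 for WNT6. The bin of ROR1 also holds GSK3B at 273 kb and GPC5 at 1469 kb, so length was held only loosely there. The part of gene length in the ROR changes was not tested further. Over all members the median on this scale was −0.00065.

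**Figure D4:**
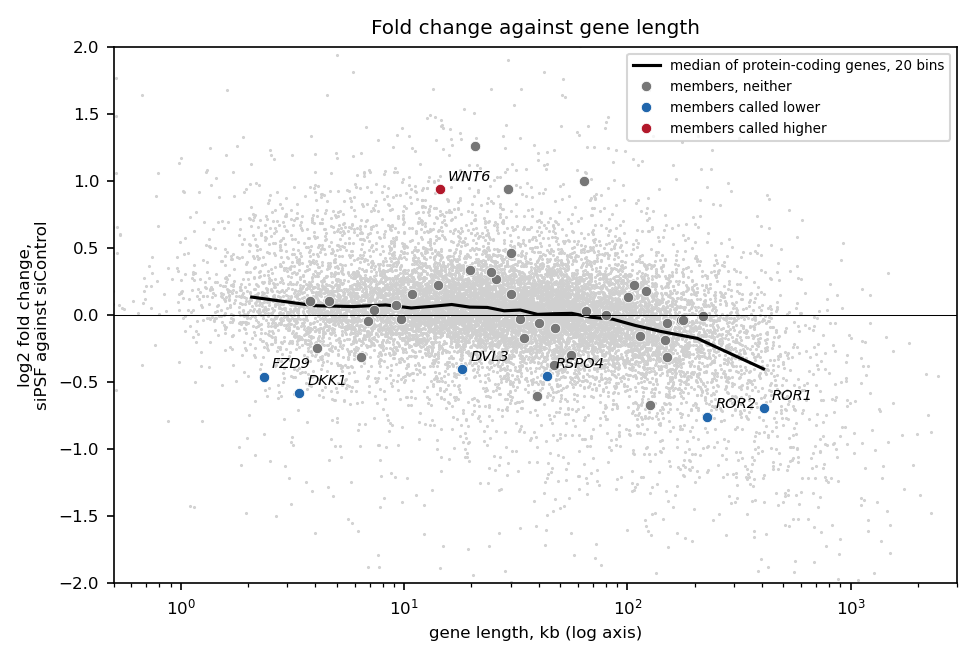
Log2 fold change against gene length on a log axis, with protein-coding genes in light grey, their median in 20 length bins as a black line and the WNT genes as large points; genes beyond 2 on either side of the vertical axis are not drawn. The line falls to −0.17 or lower in the bins that hold ROR2 and ROR1, ROR2 and ROR1 lie below it, and DKK1, FZD9, DVL3 and RSPO4 lie below it at gene lengths where it is above 0.

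A further 131 genes of the pathway that do not belong to these families were tested, of which 18 fell (13.7%) and 5 rose (3.82%), with a median log2 fold change of −0.01. Of these, 43 were 100 kb or longer, against 2770 of 14469 protein-coding genes tested, and longer genes were called lower more often. Relative to genes of like length the median was −0.0034. The part of gene length in these counts was not tested. Of 22 other secreted and surface modulators, 4 fell and none rose. All 4 were glypicans, heparan sulfate proteoglycans that hold WNT and other ligands at the cell surface. GPC6 dropped from 35.8 ± 4.8 to 12.4 ± 1.8 CPM (SD, n = 3), a log2 fold change of −1.52 (adjusted p = 4.5e-05). GPC4 was at −1.21 (adjusted p = 0.0075) and GPC5 at −0.94 (adjusted p = 0.035), both under 1 CPM, while GPC2, the fourth, was at −0.28 (adjusted p = 0.045; named after its value was seen). GPC1 and GPC3, also glypicans of the list, were not called, at −0.04 and −0.20. GPC6 and GPC5 are 1191 kb and 1469 kb long, and against genes of like length stood at −1.12 and −0.54.

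Neither the 8 genes of WNT acylation and secretion nor the 16 genes of the destruction complex with β-catenin held a call. CTNNB1, which encodes β-catenin and was chosen after its value was seen, averaged 250 CPM in both groups (log2 fold change 0.0007 ± 0.15, adjusted p = 0.998). Of 16 nuclear cofactors, 3 fell and 2 rose. TLE3, a Groucho-type corepressor of TCF/LEF, fell by 0.64 on the log2 scale (adjusted p = 0.001) and its paralog TLE1 rose by 0.53 (adjusted p = 0.0042). CREBBP, a histone acetyltransferase coactivator, fell by 0.40 (adjusted p = 0.0056).

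Of 25 planar polarity genes 3 fell and none rose. CELSR3, an atypical cadherin of axon guidance, was at −0.34 (adjusted p = 0.018) and MAPK10, the neuronal JNK, at −0.47 (adjusted p = 0.044). MAPK10, 584 kb long, stood at −0.07 against the median of the same wide bin of the longest genes. Of 18 genes of the calcium branch, 10 of which were 100 kb or longer, 2 fell and 2 rose. PLCB1, a phospholipase C, fell by 1.14 (adjusted p = 5.9e-04), while the calmodulin kinase genes CAMK2B and CAMK2A rose by 0.83 (adjusted p = 0.0040) and 1.25 (adjusted p = 0.013), the latter from under 1 CPM. Of 26 β-catenin target genes that are not members, 6 fell and 1 rose, at a median of 0.03. EPHB2, an ephrin receptor, was at −0.53 (adjusted p = 0.0014), CCND1, which encodes cyclin D1, at −0.78 (adjusted p = 0.0020) and TNFRSF19, a receptor of the TNF family, at −1.002 (adjusted p = 0.0031). Of single genes in these lists, only GPC6, GPC5 and MAPK10 were also given relative to gene length. The other changes take no account of it. These lists were chosen with earlier results of the data known, and their counts are descriptions to be read against the shares over all genes given above.

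**Figure D5:**
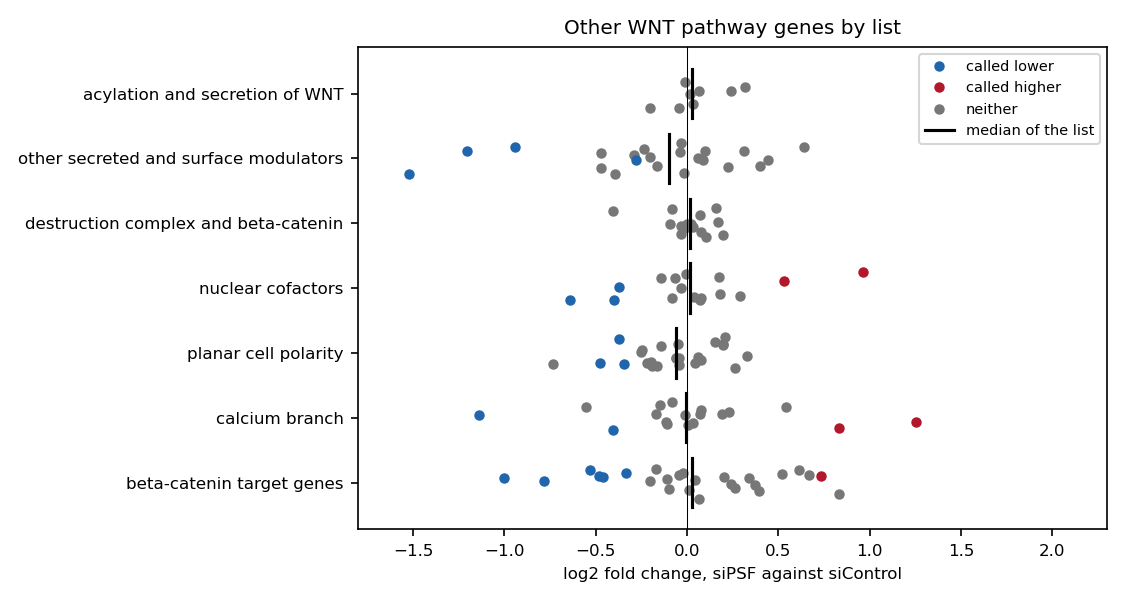
Log2 fold change of the other pathway genes in 7 lists, a point for each gene and a black bar for the median of the list; blue marks genes called lower and red genes called higher. The medians lie between −0.10 and 0.03, and the lowest points are the glypicans GPC6 and GPC4 and the phospholipase PLCB1.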

How the data were processed

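Poly(A) RNA of SH-SY5Y cells was sequenced in 3 siControl and 3 siPSF libraries. The authors deposited for each gene and library a raw count and an FPKM value (RPKM in the study's methods). The sources differ on how they were made: the study's methods name Bowtie 2, TopHat and RefSeq counting on hg38, and the submitters' processing notes name Trimmomatic, HISAT2 2.1.0, StringTie 2.1.3b and GRCh38. They differ on the library kit as well: the study's methods name a TruSeq RNA kit, and the submitters' notes and labels a stranded TruSeq kit. Strand use in counting is not stated. The smallest count is 1, so a gene with an empty library has no row. Not analysed here were WNT1, WNT2, WNT3A, WNT7A, WNT7B, WNT8A, WNT9B, WNT16, FZD10, SFRP2, SFRP5, DKK4, RSPO1, RSPO2, RSPO3 and RNF43.

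Counts (101540520 to 132420931 per library) were filtered with filterByExpr, scaled by TMM and tested with edgeR 4.0.16 in R 4.3.3 (glmQLFit, glmQLFTest, no replicate block), with Benjamini-Hochberg adjustment over 19694 genes and calls at an adjusted p under 0.05. The SE is the absolute log2 fold change over the square root of F. Simulated data had 65, 66 and 64 of 19539 genes changed by 0.5, 1 and 2 on the log2 scale. The fit recovered 24.6%, 68.2% and 95.3% of these, and 8.96% of its calls were false. Far fewer genes were changed there than the 2938 called in the data. The Benjamini-Hochberg limit was therefore stricter in the simulation, and these rates do not carry over directly. Replicate pairs differed by a chi-square of at least 22.4 per degree of freedom, so every library was counted as its own sample. Gene positions and lengths came from RefSeq GRCh38.p14 and exon overlaps from GENCODE, where 15 members overlap an exon on the opposite strand, 4 of them (DKK3, WNT2B, FZD4, DKK1) by over 10% of their exonic bases.

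The rule for members uses gene symbols and no measured value, among rows that had counts in every library. But it and the lists were set with earlier results of these data known. Named were called members, the 2 of highest FPKM in each role, members changed over 2-fold, up to 3 called genes per pathway list by p, and SFPQ. A gene that this rule selects is not reported here. Other genes named were chosen after their values were seen, including members given for not overlapping between groups and AXIN2. Alternatives were DESeq2 1.42.0 size factors and Wald test, no filter, a replicate block, leaving out each library, an adjusted p under 0.01, 10 length bins, and limma 3.58.1 on log2(FPKM + 0.5) or log2(FPKM + 0.1) of genes with a mean of at least 0.5, and without that filter.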

Additional observations from a re-analysis of the deposited data

How the results depend on the processing

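ROR2, WNT6 and SFPQ kept their call under every alternative. ROR1 lost its call only with limma on log2(FPKM + 0.5) without a filter, DKK1 there and at an adjusted p under 0.01, and the other called members under at least 1 library left out. Members called lower numbered 3 to 7 and called higher 1 to 2 when each library was left out, with the fewest (3) lower without siControl replicate 2 or without siPSF replicate 1. Lower calls were 3 with limma on unfiltered FPKM and 2 at an adjusted p under 0.01, and higher calls were 2 with DESeq2's Wald test, which added WNT2B. Other pathway genes called lower ranged from 9 to 16 and called higher from 2 to 10 with a library left out, and higher calls were 3 with limma on unfiltered FPKM. The members' median ranged from −0.075 to 0.054, turning positive (0.054) without siControl replicate 1, and was −0.11 with limma on log2(FPKM + 0.5) and −0.12 with 0.1. Relative to gene length it was 0.0020 with 10 bins. Non-overlapping members (13 in all) numbered 15 to 22 with a library left out. With fewer libraries the groups of any gene separate more easily. The share over all genes was not computed for these fits, so the rise says nothing about the members.

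Limma on FPKM values rescaled to equal library sums, an alternative chosen after seeing the data, moved the median of all genes to −0.16 and the share of lower calls from 55.4% to 88.0% (70.8% without rescaling). It gave 10 of 29 members tested lower, adding LRP6, WNT3, LGR5 and DKK3, where 3409 of all 14827 genes tested were lower. Of 112 pathway genes tested, 30 were lower and 3 higher, and the members' median was −0.21. On FPKM rescaled in this way 22 of 45 members did not overlap, and the share over all genes was not computed. The deposited FPKM summed to 424366 to 454381 per siControl library and to 473437 to 482571 per siPSF library. Rescaling to equal sums therefore lowers siPSF values relative to siControl values by construction. Why the sums differed was not tested.

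Deviations of same-numbered libraries correlated at −0.02, 0.06 and 0.06, within the range of −0.12 to 0.07 for libraries of different number. These values showed no clear pairing by number. With 3 libraries per group they cannot exclude a weak one. A replicate block gave 5 members lower and 1 higher, without DVL3 and FZD9 and with LRP6. Over all genes, lower calls ranged from 928 and higher calls from 572 without siControl replicate 2 to 1735 and 1405 without siPSF replicate 3. WNT8B had 15 to 55 counts per library and WNT5A 33 to 76, and recovery of changes at such counts was not tested.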
